A study of Mus musculus with 4 samples.

Results

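Mouse liver RNA was examined for 42 genes of amino acid breakdown and the urea cycle, all found among the 32285 gene symbols of the deposited count tables. They were chosen by symbol and not by a cut on measured values, though with earlier results of these data known. They were grouped by the amino acid that each enzyme uses, which gave 12 groups. The study sequenced RNA of single nuclei from livers of 2 groups of mice, fasted for 16 to 24 h or fed, with 2 nuclear preparations (libraries) per group. Each preparation came from 50 mg of frozen liver pooled over 8 mice. No genotype, drug or transgene is named for either group, and strain, sex and age are not given in the sources used here. It is unsaid if a group's 2 preparations used different mice, so the p-values below measure the spread between preparations, which may be technical. Series of 4 values are always in the order fasted 1, fasted 2, fed 1 and fed 2.

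Amino acids that are not needed for protein are stripped of their nitrogen, and the carbon skeletons are burnt or turned into glucose or ketone bodies. The ammonia released is made into urea by hepatocytes, through the urea cycle, and excreted. Blood enters the liver lobule at the portal vein and leaves at the central vein. Urea synthesis and the breakdown of several amino acids are known for their periportal place, while hepatocytes next to the central vein capture leftover ammonia as glutamine. Fasting, through glucagon and glucocorticoids, is a known inducer of many of these enzymes.

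After filtering, 29818 nuclei were kept, and 18829 of them in 11 clusters were hepatocyte-like by their markers, such as Alb and Apob, all 8 of which were detected in hepatocytes of every library. Hepatocyte clusters mostly came from 1 library each, so hepatocytes were pooled into 1 class of 5399, 4567, 5057 and 3806 nuclei, with 20962104, 19310969, 16832002 and 6772419 UMIs (unique molecular identifiers, so that each captured RNA molecule counts once). A hepatocyte cluster led by Saa2 and Saa1, genes of the acute-phase response, held 7, 2, 1734 and 3 nuclei, which was 34.3% of the hepatocytes of fed 1 and at most 0.130% of those of any other library. In fed 1 it made up 36.5% of the periportal and 23.4% of the pericentral zone described next, and Saa1 was at 11.97, 0.880, 389 and 1.92 CPM (counts per 1000000 UMIs) over all hepatocytes. Results that changed without these nuclei are given with both values. Hepatocytes of fed 2 had the lowest median depth, 1281 UMIs against 2924, 3239 and 2557. In the same library Gm42418, where ribosomal RNA reads tend to land, made up 4.22% of hepatocyte UMIs, against 0.213% to 0.893% elsewhere. Summed markers of stellate cells in hepatocytes were at 23.1, 12.5, 48.5 and 64.2 CPM, those of T or NK cells at 25.5, 15.2, 7.43 and 9.75 CPM, and those of endothelial cells at 24.2, 4.76, 18.7 and 52.4 CPM, and all 8 endothelial markers were above 0 in every library. The part of these markers, of depth and of Gm42418 in the results on feeding was not tested. Between 12 and 42 cell barcodes were shared by any pair of libraries. Of the 8 stellate markers, 2, 3, 1 and 0 were at 0. In endothelial-like nuclei the median gene was at 12.4%, 12.6%, 12.4% and 26.8% of its UMIs per hepatocyte, with the highest share for Oat in the first 3 libraries (53.1%, 40.7% and 59.7%) and for Amt in fed 2 (206%). Hepatocytes were the deeper nuclei, with means of 3883, 4228, 3328 and 1779 UMIs against 949, 1105, 916 and 943. As CPM, which scale by depth, the median gene in endothelial-like nuclei was at 50.7%, 48.1%, 45.2% and 50.5% of its hepatocyte level, and 3, 1, 3 and 2 genes (from Gcsh, Oat, Agxt, Amt and Etnppl) were higher there than in hepatocytes. Set against 5 other cell types, each of 20 or more nuclei per library, and with no scaling for depth, 34 of the 42 genes had the most UMIs per nucleus in hepatocytes in all 4 libraries. The other 8 were Fah, Sds, Sdsl, Amt, Gcsh, Oat, Agxt and Etnppl.

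Position in the lobule was read from a score per hepatocyte, 11 pericentral minus 7 periportal landmark genes, none of which is among the 42. The periportal ones were Cyp2f2, Hsd17b13, Cdh1, Ctsc, Sult5a1, Pck1 and Pigr. The pericentral ones were Glul, Cyp2e1, Slc1a2, Cyp1a2, Lgr5, Slc22a3, Gulo, Tbx3, Lect2, Cyp2a5 and Cyp2c29. Counts were first thinned to 1500 UMIs per nucleus, and shallower hepatocytes were left out, 591, 337, 718 and 2237 of them. The scored hepatocytes of each library were cut into 3 equal parts by score, of which the lowest is called the periportal zone and the highest the pericentral zone, and for a finer view into 5 equal bins. The zones are ranges of a continuous score, and 123 to 427 nuclei per library lay within 0.1 SD of a given boundary. Scores from odd and from even landmarks correlated across nuclei at 0.490, 0.500, 0.492 and 0.514, as a description. The pericentral zone was the deeper one in every library, with median UMIs of 3448 against 2823, 3653.5 against 3124, 3240.5 against 2606 and 2443 against 2211. The part of that depth in the position results was not tested, and CPM scale each sum by its total. Levels of a landmark could also differ by feeding. Pck1 was at 2110, 2477, 1540 and 1948 CPM in the periportal zone and at 1513, 1777, 859 and 744 CPM in the pericentral zone. The part of Pck1 by itself in the results was not tested, though an alternative score used the pericentral landmarks alone.

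Along the lobule, 26 of the 42 genes differed between the outer zones, 21 of them higher on the portal side and 5 on the central side. The 6 largest portal differences were those of Sds, Sdsl, Hal, Etnppl, Gls2 and Gldc, and the central genes belonged to proline, tyrosine, glyoxylate and branched-chain breakdown. Over all genes, 16.1% of 11464 passed the same test, 8.04% higher on the portal and 8.06% higher on the central side (edgeR quasi-likelihood test with Benjamini-Hochberg adjustment at 0.05, library as a block, n = 4). The median log2 fold change, pericentral minus periportal, was -0.25 over the 42 genes and -0.01 over all genes. In all 4 libraries, 22 of the 42 were higher in the periportal zone and 9 in the pericentral zone, against 16.1% of all genes each way. These directions are those of CPM. As UMIs per nucleus, with no scaling for depth, some portal calls were not higher on the portal side in every library. These were Cps1, Got1, Tat, Tdo2, Kynu, Kmo, Aass, Prodh2 and Agxt. DESeq2 called 25 of the 42, against 10.5% of all genes, and 19 of the 26 edgeR calls were kept in each of 13 alternative analyses. The 16 genes without a call were Ass1, Nags, Slc25a15, Glud1, Got2, Gpt, Gpt2, Hgd, Fah, Amt, Gcsh, Haao, Oat, Bckdha, Ivd and Hibadh.

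**Figure D1:**
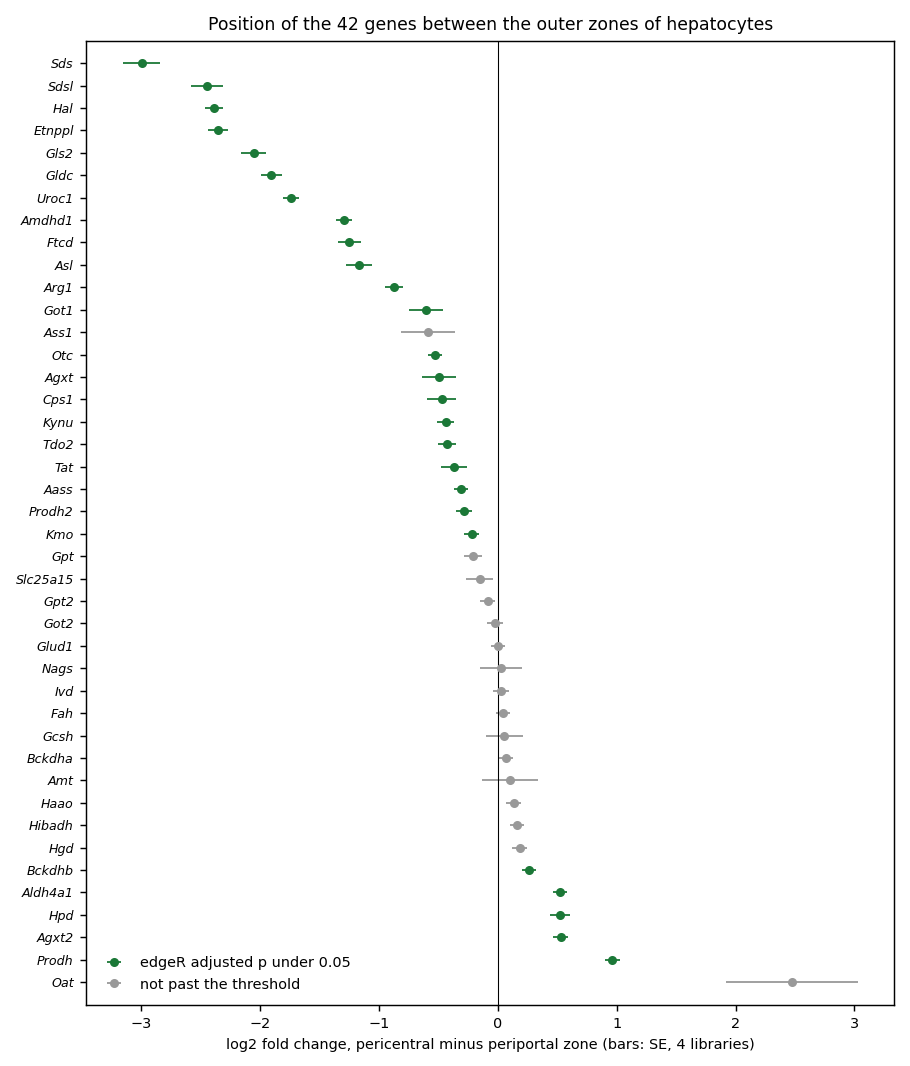
Log2 fold change of each of the 42 genes between the outer zones of hepatocytes, on the x axis as pericentral minus periportal, with bars for the SE over 4 libraries and green points for an edgeR adjusted p under 0.05. The 21 green points left of 0 run from Sds at -3.00 to Kmo at -0.22, and the 5 right of 0 reach Prodh at 0.96, while Oat at 2.47 has the widest bar and is not past the threshold.

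Between fasted and fed hepatocytes, 37 of the 42 genes had a log2 fold change above 0, against 49.5% of all genes, yet none passed the test over all genes. The edgeR call rate over all genes was 0.00715%, 1 gene of 13984, and DESeq2 called 1.18% of all genes and none of the 42. At an unadjusted p under 0.05, 12 of the 42 were higher in fasted hepatocytes and none was lower, against 3.71% and 3.07% of all genes. Both fasted libraries were above both fed libraries for 22 of the 42, against 20.6% of all genes, and the reverse held for none of the 42, against 15.6%. The median log2 fold change, fasted minus fed, was 0.56 over the 42 genes and -0.0049 over all genes. Without fed 1, leaving fed 2 alone and assumed to vary like the fasted libraries, 6 of the 42 and 1.87% of all genes passed, the 6 being Ass1, Asl, Got1, Tat, Sds and Sdsl. With no low-count filter 5 of the 42 and 1.09% of all genes passed, the 5 being Ass1, Asl, Got1, Hpd and Tdo2. Relative log expression scaling turned Fah to -0.0015 and Bckdhb to -0.0086, and no scaling turned Prodh to 0.0004, so the count above 0 depended on the scaling by these genes. With the acute-phase cluster left out, edgeR passed none of the 42 and 0.00736% of all genes, and the median over the 42 was 0.51. All 42 genes passed the low-count filter of each test, through whichever libraries held them.

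**Figure D2:**
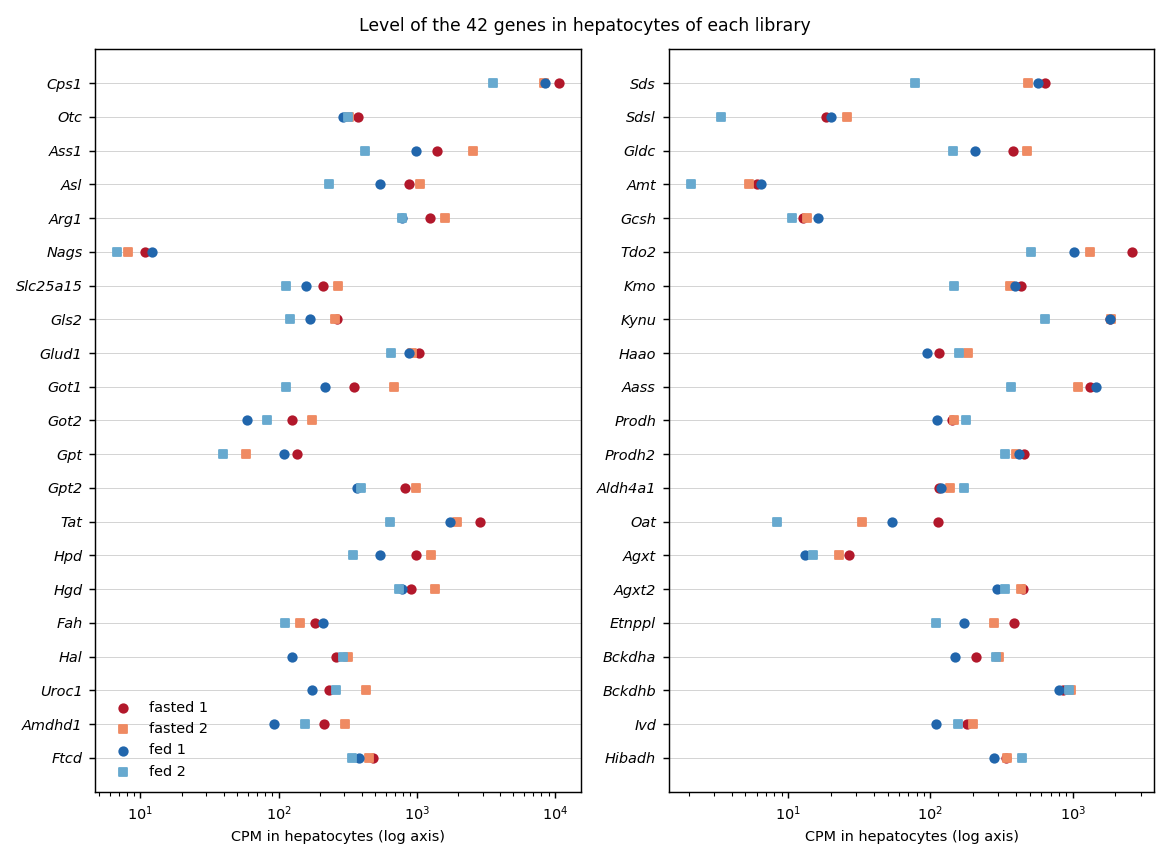
Level of each of the 42 genes in hepatocytes of each library, in CPM on a log axis, with red and orange for the fasted and dark and light blue for the fed libraries (1 point per library, no error bars). Levels are comparable within a gene only, and both fasted points lie right of both fed points for 22 genes, with fed 2 often the lowest.

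Of the 7 urea cycle genes, 4 were higher on the portal side (Cps1, Otc, Asl and Arg1) and none passed the test between fasted and fed livers. Ass1, Nags and Slc25a15 did not pass between zones, and the group's median log2 fold change was -0.53 by position and 0.81 by feeding. Cps1 (chr1:67123026-67231259, plus strand; all gene positions are GENCODE on GRCm38, which is mm10) makes carbamoyl phosphate from ammonia in the mitochondrion and is the entry enzyme of the cycle. It was at 11371, 8657, 9181 and 4538 CPM in the periportal zone and at 9278, 7300.4, 7105 and 2271 CPM in the pericentral zone. By CPM, the portal level was the higher one in every library, by 1.23-fold, 1.19-fold, 1.29-fold and 2.00-fold, so fed 2 stood apart. With no scaling for depth, the periportal zone held 40.6, 34.2, 29.6 and 12.1 UMIs of Cps1 per nucleus. The pericentral zone held 43.1, 34.7, 29.2 and 6.64, so the fasted libraries were then slightly higher on the central side. The log2 fold change was -0.47 (SE 0.12; edgeR adjusted p = 0.0303), and it was lost without fed 1 (adjusted p = 0.284), with pericentral landmarks alone (0.0529) and after the mean endothelial nucleus was subtracted (0.148), and moved to -0.31 without fed 2. Bins of the score showed where Cps1 fell. In fasted 1 it was at 11098, 11635, 11961, 11873 and 7545 CPM from the most portal to the most central bin, and in fasted 2 at 8456, 9011, 9166, 9384 and 5783 CPM. In fed 1 the bins held 9079.7, 9462, 9649, 9103 and 5856 CPM and in fed 2 4536, 4358, 3903, 3210.4 and 1791 CPM. The first 3 libraries were thus near level over 4 bins and dropped in the last, while fed 2 fell at every step.

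Otc (chrX:10252305-10321024, plus strand), which joins carbamoyl phosphate to ornithine, was at 427, 357, 342 and 386 CPM in the periportal zone and at 311, 268, 224 and 245 CPM in the pericentral zone. Its portal excess held in every library, with a log2 fold change of -0.53 (SE 0.06; edgeR adjusted p = 2.58e-06). Over whole hepatocytes Otc was at 374 and 323 CPM (fasted) and 294 and 321 CPM (fed), a narrow range in which the fasted values were only just the higher ones. Ass1 (chr2:31470207-31520672, plus strand) condenses citrulline with aspartate. It was at 1548, 2691, 1101 and 632 CPM in the periportal zone and at 1195, 2206, 794 and 233 CPM in the pericentral zone, higher on the portal side in all 4 libraries, with a log2 fold change of -0.59 (SE 0.23; edgeR adjusted p = 0.224). Without fed 2 the Ass1 difference was smaller, at -0.38, and passed the test (adjusted p = 3.69e-04). Asl (chr5:130011258-130029247, minus strand) splits argininosuccinate into arginine and fumarate and had the steepest portal gradient of the 7 genes by its fitted value. Asl was at 1129.8, 1355, 732 and 349 CPM in the periportal zone and at 593, 673, 306 and 104 CPM in the pericentral zone, with a log2 fold change of -1.17 (SE 0.11; edgeR adjusted p = 5.71e-05). Arg1 (chr10:24915221-24927484, minus strand) releases urea from arginine. It was at 1540.0, 1912, 969 and 994 CPM in the periportal zone and at 939, 1146, 535 and 419 CPM in the pericentral zone, with a log2 fold change of -0.87 (SE 0.08; edgeR adjusted p = 7.17e-07). For Asl and Arg1 the summed periportal level was above the summed pericentral level in every library.

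Nags (chr11:102145513-102149477, plus strand), which makes the activator of Cps1, was at 10.5, 7.17, 12.2 and 8.64 CPM in the periportal zone and at 9.94, 10.00, 11.1 and 5.88 CPM in the pericentral zone. These low levels changed sides between libraries, and the log2 fold change was 0.02 (SE 0.18; edgeR adjusted p = 0.960). Slc25a15 (chr8:22375551-22398597, minus strand) carries ornithine into the mitochondrion. It was at 206, 257, 164 and 142 CPM in the periportal zone and at 209, 269, 136 and 79.7 CPM in the pericentral zone, nearly equal in the fasted libraries and higher on the portal side in the fed ones, with a log2 fold change of -0.15 (SE 0.11; edgeR adjusted p = 0.474). By feeding, 6 of the 7 urea cycle genes were above 0, and both fasted libraries exceeded both fed ones for 5 (Otc, Ass1, Asl, Arg1 and Slc25a15). Ass1 was at 1402 and 2559.9 CPM (fasted) and 988 and 421 CPM (fed), and its log2 fold change of 1.49 (SE 0.51; edgeR adjusted p = 0.652) was the largest of the 7. Asl was at 874 and 1049.9 CPM (fasted) and 539.7 and 231 CPM (fed), with a log2 fold change of 1.32 (SE 0.44; edgeR adjusted p = 0.632). The fed libraries differed from each other too, fed 2 holding less than fed 1 of both genes. Arg1 was at 1256 and 1594 CPM (fasted) and 787 and 779 CPM (fed), with both fed libraries nearly equal and both fasted ones above them, and a log2 fold change of 0.83 (SE 0.32; edgeR adjusted p = 0.700). Slc25a15 was at 210.0 and 271 CPM (fasted) and 157 and 114 CPM (fed), with a log2 fold change of 0.81 (SE 0.32; edgeR adjusted p = 0.730). Cps1 was at 10694 and 8316 CPM (fasted) and 8437 and 3551 CPM (fed). Fed 1 lay between the fasted libraries and fed 2 lay far lower, and the log2 fold change was 0.65 (SE 0.45; edgeR adjusted p = 0.883). Nags was at 10.8 and 8.13 CPM (fasted) and 12.1 and 6.79 CPM (fed), with the groups overlapping.

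Glutamine breakdown was portal, and the common aminotransferases were mostly level across the lobule. Of this group of 6, Gls2 and Got1 were higher in the periportal zone, and Glud1, Got2, Gpt and Gpt2 did not pass. Gls2 (chr10:128194457-128210004, plus strand), the liver glutaminase that frees ammonia from glutamine, was at 409, 421, 257 and 184 CPM in the periportal zone and at 121, 95.2, 60.3 and 27.5 CPM in the pericentral zone. Its log2 fold change was -2.06 (SE 0.10; edgeR adjusted p = 1.20e-07), a fitted fold of 4.16, with the periportal value at least 3.38 times the pericentral one in every library. Got1 (chr19:43499752-43524605, minus strand), the cytosolic aspartate aminotransferase, was at 382, 758, 275 and 180.0 CPM in the periportal zone and at 303, 576, 160.2 and 70.6 CPM in the pericentral zone, with a log2 fold change of -0.60 (SE 0.14; edgeR adjusted p = 0.0390). That call was lost without fasted 2 (adjusted p = 0.0619), without fed 1 (0.228), with no scaling factors (0.0531), with the acute-phase cluster left out (0.0784) and with pericentral landmarks alone (0.0860). By feeding, Got1 had the largest log2 fold change of the 42 genes, 1.65 (SE 0.48; edgeR adjusted p = 0.585). It was at 352 and 686 CPM (fasted) and 216 and 113 CPM (fed), so that the fasted libraries were apart from the fed ones and from each other. Gpt2 (chr8:85492576-85527560, plus strand), the mitochondrial alanine aminotransferase, was at 819 and 988 CPM (fasted) and 368 and 396 CPM (fed). Within each group its 2 libraries were close, the groups did not overlap, and the log2 fold change was 1.21 (SE 0.32; edgeR adjusted p = 0.558). Got2 (chr8:95864134-95888547, minus strand), the mitochondrial aspartate aminotransferase, was at 125 and 174 CPM (fasted) and 59.4 and 83.0 CPM (fed), with a log2 fold change of 1.03 (SE 0.37; edgeR adjusted p = 0.676). Gls2 was at 264 and 258 CPM (fasted) and 169.6 and 120.3 CPM (fed), with a log2 fold change of 0.82 (SE 0.30; edgeR adjusted p = 0.677). All 6 genes of the group were above 0 by feeding, and both fasted libraries exceeded both fed ones for 5, all but Gpt. Across the lobule Gpt2 and Got2 had log2 fold changes of -0.09 (SE 0.06) and -0.02 (SE 0.07), and Glud1, which releases ammonia from glutamate, had 0.0014 (SE 0.06).

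In the pericentral zone alone, Got1 was the 1 gene of the 42 that DESeq2 called higher in fasted livers (adjusted p = 0.0401), with 0.681% of all genes called by that tool. The edgeR log2 fold change there was 1.89 (SE 0.51; edgeR adjusted p = 0.687), against 1.29 (SE 0.45; edgeR adjusted p = 0.661) in the periportal zone. edgeR called none of the 42 in either zone, with 0.00878% of all genes called in the periportal and 0.0084% in the pericentral zone. At an unadjusted p under 0.05, 11 of the 42 were higher in the fasted periportal zone and 13 in the fasted pericentral zone, against 3.55% and 3.41% of all genes. Both fasted libraries were above both fed ones for 24 of the 42 in either zone, against 20.5% and 20.7% of all genes, and below them for none, against 15.4% and 13.6%. In the periportal zone DESeq2 called 0.974% of all genes and none of the 42. Without fed 1, edgeR called 2.23% of all genes in the periportal and 1.68% in the pericentral zone, and passed 5 of the 42 in the periportal zone (Asl, Sds, Gldc, Tdo2 and Etnppl) and 9 in the pericentral zone (Cps1, Ass1, Asl, Got1, Tat, Sds, Gldc, Kynu and Etnppl). With the replicate number as a block, 1.26% and 2.68% of all genes passed in these zones, with none of the 42 in the periportal zone and 9 in the pericentral zone (Gls2, Got2, Gpt2, Tat, Amdhd1, Gldc, Tdo2, Oat and Etnppl).

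All 4 histidine genes were portal, and they span the whole route from histidine to glutamate. Hal (chr10:93488768-93519304, plus strand) removes ammonia from histidine, Uroc1 (chr6:90333284-90364551, plus strand) hydrates the product, Amdhd1 (chr10:93523338-93540033, minus strand) opens its ring, and Ftcd (chr10:76575648-76590338, plus strand) hands the last carbon to folate. Hal was at 445, 572, 210.1 and 461 CPM in the periportal zone and at 101, 97.3, 41.3 and 77.1 CPM in the pericentral zone. Every periportal value exceeded its pericentral partner by at least 4.40-fold, and the log2 fold change was -2.39 (SE 0.08; edgeR adjusted p = 2.90e-13). Uroc1 was at 372, 655, 264 and 359 CPM in the periportal zone and at 101, 219, 71.9 and 119 CPM in the pericentral zone, with a log2 fold change of -1.74 (SE 0.07; edgeR adjusted p = 7.67e-13). Amdhd1 was at 294, 411, 131 and 200.2 CPM in the periportal zone and at 138, 164, 48.1 and 75.2 CPM in the pericentral zone, with a log2 fold change of -1.29 (SE 0.07; edgeR adjusted p = 7.46e-11). Ftcd was at 705, 669, 502 and 415 CPM in the periportal zone and at 267, 229, 247 and 219 CPM in the pericentral zone, with a log2 fold change of -1.25 (SE 0.10; edgeR adjusted p = 4.75e-06). The fitted folds thus fell from 5.23 and 3.34 for the first 2 enzymes to 2.45 and 2.38 for the last 2. The differences between these folds were not tested. All 4 genes fell at every step of the bins in all 4 libraries. For Hal the bins held 464, 389.6, 293, 133 and 78.6 CPM for fasted 1 and 499, 416, 226, 105 and 67.2 CPM for fed 2, so the slope ran through the whole range of the score rather than at its end. By feeding, Amdhd1 was at 214 and 302 CPM (fasted) and 92.4 and 155 CPM (fed), with a log2 fold change of 1.01 (SE 0.42; edgeR adjusted p = 0.735). The fed values were both the lower ones. Hal was at 259 and 316 CPM (fasted) and 125 and 291 CPM (fed), where fed 2 lay between the fasted libraries, and its log2 fold change was 0.40 (SE 0.49; edgeR adjusted p = 0.975) and turned to -0.12 without fed 1. Uroc1 was at 231 and 428 CPM (fasted) and 174 and 261 CPM (fed), with overlapping groups, and Ftcd at 479 and 451 CPM (fasted) and 379.8 and 337 CPM (fed), with both fasted values above both fed ones.

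Hal and Amdhd1 are also neighbours, 4033 bases apart on chromosome 10 with no protein-coding gene between them, and they point toward each other. Their promoter windows, the 250 bases before each start in RefSeq on GRCm38.p6, are shown because these 2 genes share a place in the genome, a pathway and a side of the lobule. The Hal window is chr10:93488518-93488767, plus strand, and the Amdhd1 window is chr10:93540034-93540283, minus strand. Capitals, which only the Hal window has, mark the letters ATCAAAG or their reverse complement CTTTGAT, the core bound by TCF/LEF factors of Wnt signalling, which is active around the central vein.
Hal: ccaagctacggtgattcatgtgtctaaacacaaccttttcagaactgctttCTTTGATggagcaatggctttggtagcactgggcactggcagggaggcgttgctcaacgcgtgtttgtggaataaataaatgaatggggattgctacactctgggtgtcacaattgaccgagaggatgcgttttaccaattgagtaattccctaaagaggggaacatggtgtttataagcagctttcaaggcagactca
Amdhd1: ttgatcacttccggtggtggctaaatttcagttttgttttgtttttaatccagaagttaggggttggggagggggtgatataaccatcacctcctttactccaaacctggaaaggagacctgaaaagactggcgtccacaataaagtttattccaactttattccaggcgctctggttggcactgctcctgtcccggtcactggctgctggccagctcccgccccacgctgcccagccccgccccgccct
The motif stands once in the Hal window and is not in the Amdhd1 window. Matching windows were found for 34 of the 42 genes (38 windows), and Agxt2, Haao, Hal and Nags held this motif, 13.2% of those windows against 3.21% of 32851 windows of all genes. This share counts windows and not genes, and a gene can have more than 1 window, as Agxt2 has 2. Of these 4 genes, Hal was portal, Agxt2 central and Haao and Nags without a call, so the letters occurred on both sides. Other motifs searched on both strands were TGACGTCA (cyclic AMP response element, no member), the inverted repeat bound by the glucocorticoid receptor (no member), CAAAGTCCA (HNF4A, Agxt2), TTGCNNCAA (C/EBP, Bckdha), TGTTTAC (FOX factors, Hibadh), the inverted repeat bound by HNF1 (no member) and ATCGAT (ONECUT, no member). Over all windows these were found in 1.55%, 0.00913%, 0.384%, 1.74%, 3.17%, 0.00913% and 0.728%, in the same order. A match is a description of letters in this window only.

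Serine breakdown had the steepest portal gradient of the 42 genes. Sds (chr5:120476526-120483932, plus strand), which turns serine into pyruvate and ammonia, was at 1264, 894, 1092 and 137 CPM in the periportal zone and at 186, 134, 105 and 7.84 CPM in the pericentral zone. Its log2 fold change was -3.00 (SE 0.15; edgeR adjusted p = 1.90e-05), a fitted fold of 7.99, and the level in fed 2 was far below that of the other libraries in both zones. Sds lies 3715 bases from Sdsl (chr5:120458186-120472810, minus strand), a related dehydratase of serine and threonine on the opposite strand, with no protein-coding gene between them, and the pair starts back to back. Sdsl was at 35.3, 44.8, 34.3 and 7.20 CPM in the periportal zone and at 6.44, 8.95, 5.55 and 1.31 CPM in the pericentral zone, the last value resting on 2 counts, and had a log2 fold change of -2.45 (SE 0.13; edgeR adjusted p = 1.71e-10). Sds shares positions with Gm15690 and Plbd2 on the other strand, and without a stated strand setting in the counting, reads of such overlapping genes cannot be told apart. Of the 42 genes, 15 overlap another gene, 9 of them a protein-coding one. Aldh4a1 and Agxt2 overlap Gm21969 and Gm21973 on the same strand. Gls2, Kmo, Prodh and Bckdha overlap Spryd4, Fh1, Dgcr6 and B3gnt8 on the other strand. By bins, the level of Sds was 1358, 1033, 621, 250.3 and 147 CPM for fasted 1, 917, 792, 488, 226 and 92.8 CPM for fasted 2 and 1124, 1014, 559, 206 and 58.5 CPM for fed 1, falling at every step, as it did in fed 2. By feeding, Sds was at 638 and 483 CPM (fasted) and 571 and 78.4 CPM (fed) and Sdsl at 18.6 and 25.9 CPM (fasted) and 20.02 and 3.40 CPM (fed). Fed 1 was within the fasted range for both genes and fed 2 was far below it. The log2 fold changes were 0.80 (SE 0.79; edgeR adjusted p = 0.945) and 0.92 (SE 0.74; edgeR adjusted p = 0.913), and both passed without fed 1, at 2.73 (adjusted p = 0.00481) and 2.61 (adjusted p = 0.0371) in edgeR.

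In the glycine cleavage system, only the decarboxylase was portal. Gldc (chr19:30098447-30175429, minus strand), its first enzyme, was at 607, 817, 320.4 and 211 CPM in the periportal zone and at 198, 192, 87.2 and 43.1 CPM in the pericentral zone, with a log2 fold change of -1.91 (SE 0.09; edgeR adjusted p = 2.46e-09). The periportal values exceeded the pericentral ones by 3.07-fold to 4.89-fold, and Gldc fell at every step of the bins in all 4 libraries. Its partners Amt and Gcsh, the aminomethyltransferase and the lipoyl carrier, had log2 fold changes of 0.11 (SE 0.24) and 0.05 (SE 0.16) and rested on few counts, 14 to 126 for Amt and 72 to 275 for Gcsh per library over all hepatocytes. The difference in gradient between Gldc and its partners was not tested. Gldc was at 379 and 480.5 CPM (fasted) and 206 and 143 CPM (fed), with all fasted values above all fed ones and a log2 fold change of 1.28 (SE 0.33; edgeR adjusted p = 0.558). Etnppl (chr3:130617448-130637521, plus strand), which breaks down phosphoethanolamine with release of ammonia, had the same pair of features by CPM. It was at 667, 501, 304 and 175 CPM in the periportal zone and at 151, 98.8, 54.8 and 22.9 CPM in the pericentral zone, with a log2 fold change of -2.36 (SE 0.08; edgeR adjusted p = 2.24e-12), and over whole hepatocytes at 386 and 278 CPM (fasted) and 172 and 110.2 CPM (fed), with a log2 fold change of 1.21 (SE 0.34; edgeR adjusted p = 0.567). In fed 2, endothelial-like nuclei held 0.212 UMIs of Etnppl each, against 0.196 per hepatocyte and 0.0669 per pericentral nucleus. Both hepatocyte values were thus below the endothelial-like level. Subtracting the mean endothelial nucleus left 0 CPM of Etnppl in fed 2 hepatocytes. For Hal, Gldc and Gls2 in fed 2, endothelial-like nuclei were at 80.6%, 78.0% and 66.0% of the pericentral level per nucleus.

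**Figure D3:**
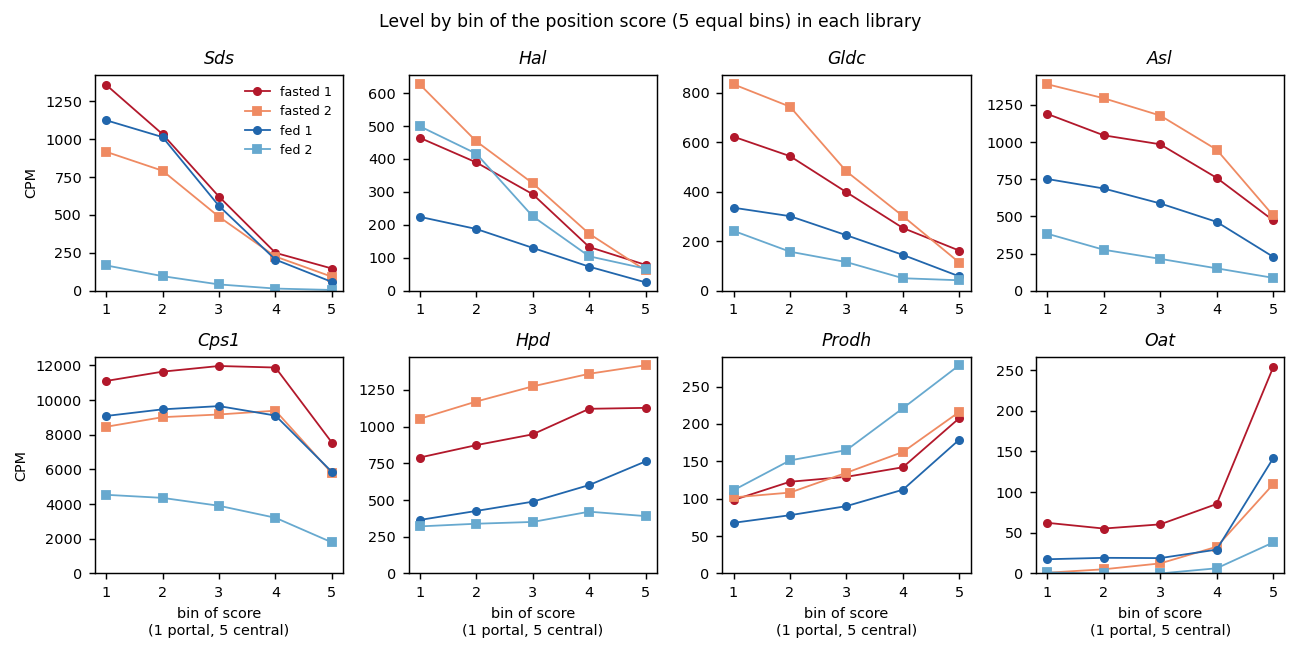
Level in CPM (y axis, own scale per gene) by bin of the position score (x axis, 1 most portal to 5 most central) for 8 genes, with 1 line per library and no error bars. Sds, Hal, Gldc and Asl fall at every step in each library, Prodh rises at every step, Cps1 drops mainly in the last bin outside fed 2, and Oat rises mainly in the last bin.

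The tyrosine route was split, with its first enzyme higher on the portal side and its second on the central side. Tat (chr8:109990437-109999803, plus strand), the tyrosine aminotransferase and a classic target of glucocorticoids, was at 3027, 2044, 1925 and 779 CPM in the periportal zone and at 2687, 1819, 1507 and 426 CPM in the pericentral zone. The portal excess was small outside fed 2, and the log2 fold change was -0.37 (SE 0.11; edgeR adjusted p = 0.0438). The Tat call was lost without fed 1 (adjusted p = 0.268), with no scaling factors (0.0505) and after the mean endothelial nucleus was subtracted (0.136), and the value was -0.24 without fed 2. Hpd (chr5:123171807-123182727, minus strand), the next enzyme, was at 813, 1084, 383 and 328 CPM in the periportal zone and at 1141, 1401, 703 and 418 CPM in the pericentral zone, higher on the central side in every library, with a log2 fold change of 0.53 (SE 0.08; edgeR adjusted p = 4.65e-04). Hgd and Fah, later enzymes of the route, did not pass, with log2 fold changes of 0.18 (SE 0.06) and 0.04 (SE 0.06). By feeding, Hpd was at 984 and 1264 CPM (fasted) and 547 and 346 CPM (fed), with the groups apart and a log2 fold change of 1.32 (SE 0.35; edgeR adjusted p = 0.558). Tat was at 2871 and 1961 CPM (fasted) and 1755 and 642 CPM (fed), with fed 1 just under fasted 2, and a log2 fold change of 1.00 (SE 0.50; edgeR adjusted p = 0.777). Hpd shares positions with Psmd9 and Gm26745.

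Of the 4 tryptophan genes, Tdo2, Kynu and Kmo were higher on the portal side, as was Aass, the 1 lysine gene, while Haao did not pass. Tdo2 (chr3:81957090-81976202, minus strand), which opens the ring of tryptophan, was at 3058, 1658, 1219.9 and 523 CPM in the periportal zone and at 2359, 1039, 851 and 494 CPM in the pericentral zone, higher on the portal side in every library though nearly level in fed 2, with a log2 fold change of -0.43 (SE 0.08; edgeR adjusted p = 6.36e-04). Kynu (chr2:43555329-43682715, plus strand), the kynureninase, was at 1979.7, 2040.3, 2066 and 747 CPM in the periportal zone and at 1635, 1559.6, 1575 and 441 CPM in the pericentral zone, with a log2 fold change of -0.44 (SE 0.07; edgeR adjusted p = 2.39e-04). Kmo (chr1:175620381-175662116, plus strand), the kynurenine hydroxylase, was at 451, 418, 416 and 149 CPM in the periportal zone and at 415, 325, 375 and 124 CPM in the pericentral zone, with a log2 fold change of -0.22 (SE 0.06; edgeR adjusted p = 0.0202). The Kmo call was lost without fasted 2 (adjusted p = 0.255), with counts thinned to 1000 UMIs (0.0639) and in DESeq2 (0.0839), and Haao, a later enzyme of the route, did not pass (0.13, SE 0.06). Aass (chr6:23072173-23132986, minus strand), the first enzyme of lysine breakdown, was at 1467, 1228, 1568 and 425 CPM in the periportal zone and at 1219, 941, 1326 and 330.1 CPM in the pericentral zone, with a log2 fold change of -0.31 (SE 0.06; edgeR adjusted p = 8.07e-04). By CPM, the portal side was the higher one for Aass in each library. By feeding, Tdo2 was at 2626 and 1318 CPM (fasted) and 1021 and 508 CPM (fed). Both fasted values exceeded both fed ones, fasted 1 stood above fasted 2, and the log2 fold change was 1.34 (SE 0.47; edgeR adjusted p = 0.664). Kynu was at 1843 and 1854 CPM (fasted) and 1839.9 and 637 CPM (fed), Kmo at 431 and 361 CPM (fasted) and 392 and 146 CPM (fed) and Aass at 1335 and 1092 CPM (fasted) and 1453 and 369 CPM (fed). For these 3 genes fed 1 was close to or within the fasted range and fed 2 alone was low.

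Proline breakdown was on the central side. Prodh (chr16:18060357-18090203, minus strand), the mitochondrial proline dehydrogenase, was at 102, 101, 69.7 and 125 CPM in the periportal zone and at 180.1, 194, 153 and 248 CPM in the pericentral zone, the pericentral value being 1.77 to 2.20 times the periportal one, with a log2 fold change of 0.96 (SE 0.07; edgeR adjusted p = 3.88e-09). It was the 1 gene of the 42 that rose at every step of the bins in all 4 libraries, for example 111, 151, 165, 221 and 279 CPM in fed 2. Aldh4a1 (chr4:139622866-139649690, plus strand), which takes the product of Prodh on to glutamate, was at 89.5, 112, 98.9 and 146 CPM in the periportal zone and at 137, 156, 138 and 209 CPM in the pericentral zone, with a log2 fold change of 0.52 (SE 0.06; edgeR adjusted p = 4.81e-06). Prodh2 (chr7:30493622-30513402, plus strand), the hydroxyproline dehydrogenase, was on the other side, at 525, 451, 441 and 335 CPM in the periportal zone and at 391, 343, 386 and 322 CPM in the pericentral zone, with a log2 fold change of -0.28 (SE 0.06; edgeR adjusted p = 0.00397). That call was lost without fasted 1 (adjusted p = 0.0659) and without fasted 2 (0.0705). Oat (chr7:132557478-132576398, minus strand), the ornithine aminotransferase, was at 53.3, 1.79, 19.3 and 0.720 CPM in the periportal zone and at 181, 77.3, 96.1 and 24.2 CPM in the pericentral zone, with 1 count behind the periportal value of fed 2. It was the higher one on the central side in all 4 libraries, but the size of the difference varied widely between them. Its log2 fold change of 2.47 (SE 0.55; edgeR adjusted p = 0.0831) did not pass, while DESeq2 gave an adjusted p of 5.61e-04, and without fasted 2 the edgeR value was 2.05 (adjusted p = 1.04e-05). From portal to central, the bins of fasted 1 held 62.3, 55.2, 60.3, 85.4 and 253 CPM of Oat, and those of fed 1 held 17.5, 19.2, 18.9, 29.3 and 141 CPM, so most of the rise came in the last step. Oat shares positions with Fgfr2 on the same strand, and its share in endothelial-like nuclei was the highest of the 42 genes in 3 libraries. By feeding, these 4 genes did not separate the groups. Oat was at 112 and 33.2 CPM (fasted) and 53.5 and 8.42 CPM (fed), with a log2 fold change of 1.22 (SE 0.88; edgeR adjusted p = 0.889). Prodh was at 143 and 147 CPM (fasted) and 111 and 179 CPM (fed), Aldh4a1 at 115 and 136 CPM (fasted) and 119 and 173 CPM (fed) and Prodh2 at 457 and 402 CPM (fasted) and 422 and 335 CPM (fed).

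Of the 2 glyoxylate aminotransferases, Agxt2 was central and Agxt portal. Agxt2 (chr15:10358532-10410153, plus strand), a mitochondrial enzyme, was at 378, 366, 225 and 288 CPM in the periportal zone and at 511, 505, 361 and 422 CPM in the pericentral zone, with a log2 fold change of 0.53 (SE 0.06; edgeR adjusted p = 3.70e-06). Its promoter window in RefSeq (chr15:10358283-10358532, plus strand, GRCm38.p6, the first of 2 listed) is shown beside that of Prodh (chr16:18089191-18089440, minus strand), since these are 2 of the 5 central genes. Capitals mark ATCAAAG and the HNF4A letters CAAAGTCCA that overlap it, and the Prodh window has none.
Agxt2: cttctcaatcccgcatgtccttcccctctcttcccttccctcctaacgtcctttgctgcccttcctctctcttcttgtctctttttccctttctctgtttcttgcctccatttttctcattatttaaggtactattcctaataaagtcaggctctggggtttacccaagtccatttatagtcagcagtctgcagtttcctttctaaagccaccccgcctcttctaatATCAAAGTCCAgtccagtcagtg
Prodh: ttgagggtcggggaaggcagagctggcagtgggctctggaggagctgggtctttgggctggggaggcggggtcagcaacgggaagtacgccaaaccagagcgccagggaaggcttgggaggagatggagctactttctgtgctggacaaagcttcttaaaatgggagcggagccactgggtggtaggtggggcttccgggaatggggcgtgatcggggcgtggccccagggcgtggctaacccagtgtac
The Prodh window held none of the 8 motifs searched. It lies before the RefSeq start but inside the GENCODE span given above for Prodh, so the annotations place the start differently. Bases before the GENCODE start of Prodh were not searched. Agxt (chr1:93135240-93145421, plus strand), the other glyoxylate aminotransferase, was at 30.4, 26.7, 10.7 and 21.6 CPM in the periportal zone and at 23.1, 15.5, 10.8 and 11.1 CPM in the pericentral zone. Fed 1 was level and the other libraries were higher on the portal side, and the log2 fold change was -0.50 (SE 0.14; edgeR adjusted p = 0.0225). That call was lost in 6 of 13 alternatives, among them without fasted 1 (adjusted p = 0.0803), without fasted 2 (0.258) and without fed 2 (0.0551). Both fasted libraries were above both fed ones for Agxt, at 26.9 and 22.6 CPM (fasted) and 13.1 and 14.9 CPM (fed), and for Agxt2, at 451 and 437 CPM (fasted) and 292 and 333 CPM (fed), with log2 fold changes of 0.78 (SE 0.36; edgeR adjusted p = 0.754) and 0.46 (SE 0.30; edgeR adjusted p = 0.858).

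Branched-chain amino acid breakdown was level or slightly central, with 1 call in 4 genes. Bckdhb (chr9:83925145-84124240, plus strand), a subunit of the branched-chain ketoacid dehydrogenase, was at 789, 939, 725 and 864 CPM in the periportal zone and at 921, 1017, 909 and 1143 CPM in the pericentral zone, the pericentral value being the higher one in each library by a small margin. Its log2 fold change was 0.26 (SE 0.06; edgeR adjusted p = 0.00519), lost after the mean endothelial nucleus was subtracted (0.0781). The partner subunit Bckdha, Ivd of leucine breakdown and Hibadh of valine breakdown had log2 fold changes of 0.07, 0.02 and 0.16 and did not pass. By feeding, Bckdhb was at 851 and 969.6 CPM (fasted) and 803 and 945 CPM (fed), with overlapping groups, and the 4 genes ran from -0.13 to 0.46 on the log2 scale.

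Whether the gradient itself differed between fasted and fed livers was tested as an interaction, and 3 of the 42 genes passed: Sds, Got1 and Ftcd. Over all genes 0.454% of 12333 passed in edgeR, 7.29% had an unadjusted p under 0.05 as had 11 of the 42, and DESeq2 called 0.00811% of them and none of the 42. Sds was less steep in fasted livers. Its periportal level was 6.78 and 6.67 times the pericentral one in the fasted libraries and 10.4 and 17.4 times in the fed ones. The log2 difference in gradient of Sds was 0.69 (SE 0.13; edgeR adjusted p = 0.00378). Per nucleus, Sds in endothelial-like nuclei was at 30.4%, 37.9%, 38.3% and 99.1% of its pericentral level. In fed 2 this was 0.0227 against 0.0229 UMIs, and subtracting the mean endothelial nucleus left 0 CPM in that zone. The ratio of 17.4 thus rests on a pericentral value no higher than the level in endothelial-like nuclei. Got1 was also less steep in fasted livers, at 1.26 and 1.32 times against 1.72 and 2.55 times, with a difference of 0.57 (SE 0.12; edgeR adjusted p = 0.0302). Ftcd went the other way, with ratios of 2.64 and 2.92 in fasted against 2.03 and 1.90 in fed livers, and a difference of -0.50 (SE 0.11; edgeR adjusted p = 0.0125). None of the 3 calls held in every alternative. All were lost in DESeq2 (adjusted p = 1.000 for each), without fasted 1 (edgeR adjusted p = 0.243, 0.519 and 0.290 for Sds, Got1 and Ftcd), without fasted 2 (0.0750, 0.113 and 0.895) and after the mean endothelial nucleus was subtracted (0.978, 0.709 and 0.648). The difference of Sds was 1.36 without fed 1 and 0.24 with pericentral landmarks alone, and that of Got1 was 0.97 without fed 1. With the acute-phase cluster left out, 0.321% of all genes and 5 of the 42 passed in edgeR. These were Sds, Got1, Asl (adjusted p = 0.0214), Slc25a15 (0.0462) and Etnppl (0.0274), while Ftcd did not pass (0.143). Per nucleus, the pericentral level of Etnppl in fed 2 was below that of endothelial-like nuclei. The Sds and Got1 calls were lost as well with counts thinned to 1000 UMIs (edgeR adjusted p = 0.386 and 0.133) and with pericentral landmarks alone (0.784 and 0.344), and that of Got1 with relative log expression scaling (0.0668) and between outer bins of 5 (0.361).

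All 7 urea cycle genes had an interaction above 0, that is, a periportal level lower relative to the pericentral one in fasted livers, with the ratio between zones of both fasted libraries apart from that of both fed ones. Over all genes 50.8% were above 0, 19.9% were apart in that direction and 17.5% in the other, as were 13 and 9 of the 42. None of the 7 passed over all genes unless libraries or nuclei were left out. Asl was nearest, with ratios of 1.90 and 2.01 in fasted against 2.39 and 3.36 in fed livers and a difference of 0.44 (SE 0.12; edgeR adjusted p = 0.0925). Slc25a15 followed, with ratios of 0.985, 0.956, 1.20 and 1.78 and a difference of 0.46 (SE 0.13; edgeR adjusted p = 0.106). Fed 2, the shallowest library, had the steepest ratio for each of the 7. Without fed 1, where fed 2 stands alone for fed livers, 12 of the 42 genes and 1.54% of all genes passed, the 12 including Cps1, Ass1, Asl, Arg1 and Slc25a15. All 4 branched-chain genes lay below 0 instead, from -0.26 to -0.18, also with the libraries of the groups apart, and none passed. Of the other genes with an unadjusted p under 0.05, Tat, Arg1 and Etnppl were also steeper in the fed libraries, while Prodh2, Ivd and Bckdhb were shifted toward the central side there, and none of these passed over all genes with all nuclei in. Over the 42 genes, 21 were above 0 and 21 below, and the median was -0.0087.

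**Figure D4:**
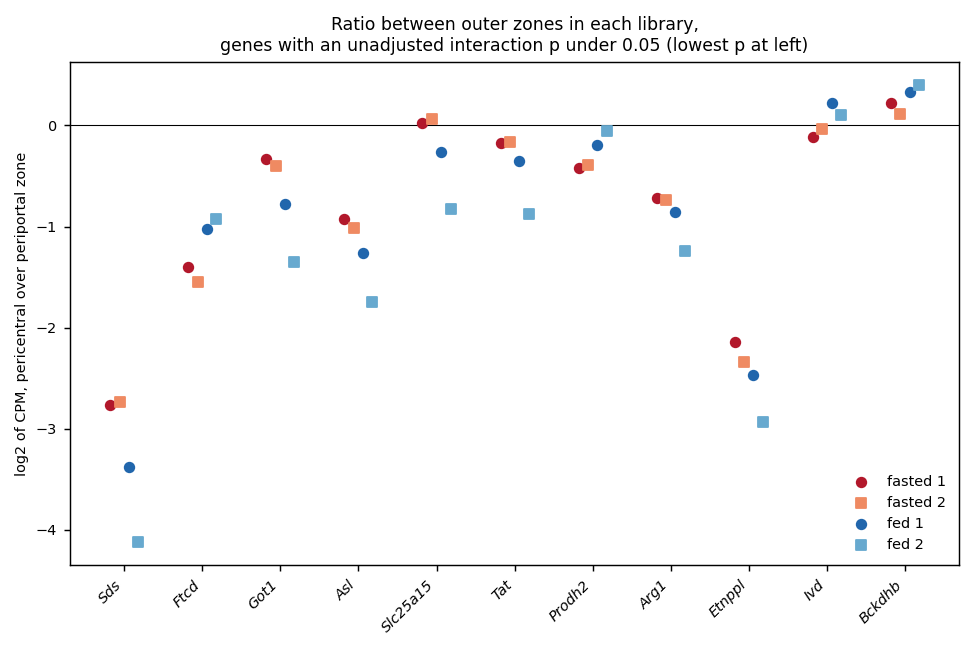
Log2 ratio of CPM in the pericentral over the periportal zone in each library (y axis) for the genes with an unadjusted interaction p under 0.05, ordered by that p, with fasted libraries in red and orange and fed ones in dark and light blue. For Sds, Got1 and Asl the fasted points lie nearer to 0 than the fed points, for Ftcd the fed points lie nearer to 0, and fed 2 is the lowest point for Sds and Asl.

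The 10 genes not described by library, Glud1, Gpt, Hgd, Fah, Amt, Gcsh, Haao, Bckdha, Ivd and Hibadh, had no edgeR call in the 5 tests as first fitted. Between zones they ran from -0.21 (Gpt) to 0.18 (Hgd) on the log2 scale, and the nearest to a call were Hgd (edgeR adjusted p = 0.0565), Hibadh (0.0708) and Gpt (0.0848). Hgd was called higher on the central side in 5 of 13 alternatives, with edgeR adjusted p from 0.0127 (pericentral landmarks alone) to 0.0429 (without fed 2). Hibadh was called with pericentral landmarks alone (edgeR adjusted p = 0.0337) and Gpt, on the portal side, without fed 1 (0.0343). By feeding they ran from -0.13 (Hibadh) to 0.54 (Hgd), with both fasted libraries above both fed ones for Glud1, Hgd and Ivd. Their differences in gradient between fasted and fed livers ran from -0.26 (Ivd) to 0.29 (Gcsh).

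Position and feeding were read together by counts alone. Of the 21 portal genes, 13 had both fasted libraries above both fed ones, as had 2 of the 5 central genes (Hpd and Agxt2) and 7 of the 16 without a call. Over all genes this share was 20.6%. Kynu and Otc, among the 13, were near ties between the lower fasted and the higher fed library. The median log2 fold change by feeding was 0.80 in the portal, 0.02 in the central and 0.36 in the remaining genes, and the differences between these medians were not tested.

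A wider list of enzymes and carriers of amino acid metabolism, with 49 symbols found, was measured the same way. By feeding, 47 could be tested and none passed (4 at an unadjusted p under 0.05 in edgeR, none in DESeq2), with a median of 0.37. By size, the first 3 were Aldh18a1 (lower in fasted libraries, but on only 0, 1, 10 and 4 counts, so that no fold is given), Afmid (1.53) and Ppm1k (0.83), on the log2 scale. By position, 44 could be tested, 2 were higher on the central and 8 on the portal side, against 8.06% and 8.04% of all genes, and the median was -0.03. Ppm1k, the phosphatase that activates branched-chain ketoacid dehydrogenase, was at 158, 102, 55.3 and 60.5 CPM in the periportal zone and at 245, 127, 129 and 106 CPM in the pericentral zone, with a log2 fold change of 0.70 (SE 0.14; edgeR adjusted p = 0.0139). In edgeR its gradient was less steep in fasted livers, by an interaction of -0.62 (SE 0.15; edgeR adjusted p = 0.0359), with 0.454% of all genes passing. DESeq2 called no gene of the wider list for the interaction, and 0.00811% of all genes. Gcdh, of lysine and tryptophan breakdown, was the other central gene, at 0.23 (SE 0.07; edgeR adjusted p = 0.0349). Aspg, an asparaginase, was the most portal, at 419.6, 271, 505 and 599.8 CPM in the periportal zone and at 144, 88.6, 179 and 185 CPM in the pericentral zone, with a log2 fold change of -1.58 (SE 0.06; edgeR adjusted p = 7.89e-13). The other 7 portal genes were Aldh1l1, Slc38a4, Slc38a3, Pcca, Aadat, Shmt1 and Ddo, with log2 fold changes from -0.48 to -0.26.

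Among 13 regulators of these genes, none passed by feeding (2 at an unadjusted p under 0.05 in edgeR, none in DESeq2) and 1 by position. Within the pericentral zone DESeq2 called Ppargc1a higher in fasted livers (adjusted p = 0.0430, against 0.681% of all genes called), and edgeR did not, at a log2 fold change of 1.70 (SE 0.38; edgeR adjusted p = 0.582). Ppargc1a, a coactivator of the fasting response, was at 334, 345, 214 and 69.8 CPM in the periportal zone and at 208, 212, 82.2 and 42.5 CPM in the pericentral zone, higher on the portal side in every library, with a log2 fold change of -0.88 (SE 0.11; edgeR adjusted p = 4.05e-04). By feeding it was at 266 and 276 CPM (fasted) and 144 and 57.3 CPM (fed), with a log2 fold change of 1.42 (SE 0.45; edgeR adjusted p = 0.631). The fasted values were close and both fed values lower. Klf15, a factor that drives amino acid breakdown, was at 157 and 169 CPM (fasted) and 98.3 and 87.9 CPM (fed), with a log2 fold change of 0.77 (SE 0.29; edgeR adjusted p = 0.685), and Nr3c1, the glucocorticoid receptor, at 262 and 213 CPM (fasted) and 414 and 304 CPM (fed), lower in both fasted libraries, with a log2 fold change of -0.63 (SE 0.30; edgeR adjusted p = 0.771).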

How the data were processed

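The deposited files hold counts of UMIs per gene and nucleus for 4 libraries, made by the authors with Cell Ranger 6.0 and mm10 per the submitters' processing notes. Between 13.2% and 17.0% of the stored entries are 0, and the counts were used as deposited. Filters and strand setting of the counting are not given in the sources used here. Nuclei were kept from 500 genes upward and up to 5% mitochondrial UMIs. Automatic Scrublet thresholds (expected rate 0.06) failed, marking 1856, 1, 1 and 0 barcodes, so the highest scores were removed at 0.8% per 1000 barcodes, 1108, 450, 758 and 233 barcodes. Nuclei were clustered in scanpy 1.11.5 and leidenalg 0.10.2 (2000 variable genes, 30 components, 15 neighbours, resolution 1) under Python 3.11.15, and clusters were named from marker lists, so a difference from the study's own cell types may come from these rebuilt names. The landmarks used were those of 14 pericentral and 13 periportal genes found in at least 2% of hepatocytes of every library. Counts were summed per library, or per library and zone, and tested in edgeR 4.0.16 (R 4.3.3; quasi-likelihood test with robust dispersion, TMM scaling, filterByExpr, Benjamini-Hochberg threshold 0.05), with DESeq2 1.42.0 as an alternative. SEs are the size of the log2 fold change divided by the square root of F. CPM are shares of summed counts and are not scaled by gene length. The fitting code was run on simulated counts with known changes and a fixed spread. That spread was not taken from these libraries, so the run does not show how the tests perform here. Other scaling, filters, score settings, left-out libraries, a replicate block, and 3 alternatives chosen after seeing the data (no scaling factors, the nuclei of the acute-phase cluster left out, and the mean endothelial nucleus of the library subtracted) were tried. The genes and lists were chosen with earlier results of these data known. Values in every library are given for the urea cycle genes, the 12 others with the largest feeding change, the 10 others with the largest position change, and genes past any test. Genes of the wider and regulator lists are named if past a test or among the 3 with the largest feeding change.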

Additional observations from a re-analysis of the deposited data

Results flagged for a closer look

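For 3 of the 42 genes the difference between the outer zones differed between fasted and fed livers by the edgeR interaction test over all genes. The log2 difference, fasted minus fed, was 0.69 for Sds (0.6856) and 0.57 for Got1 (0.5662), whose portal gradients were less steep in fasted livers, and -0.50 for Ftcd (-0.5002), whose portal gradient was steeper there. None of the 3 passed in DESeq2 or without either fasted library, and Ftcd did not pass with the acute-phase cluster left out (-0.41, edgeR adjusted p = 0.143).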

How the results depend on the processing

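Across the alternatives, values of single genes by feeding kept direction and side of the threshold 542 times, turned sign 35 times and gained a call 11 times. Between zones these were 493, 18 and 12 times, with 23 calls lost, while the 26 position calls became 23 to 27. These feeding and position counts cover all 42 genes. The interaction was followed only in the 11 genes with an unadjusted edgeR p under 0.05, of which 3 had a call. For them 117 values were kept, 19 calls lost and 7 gained. All lost calls were of those 3 genes, and the kept values include genes that stayed without a call. The genes called by feeding numbered 165 in DESeq2, 272 with no low-count filter (with 5 of the 42), 10 with the replicate number as a block, and 0 when stored zeros were counted as 1 or the mean endothelial nucleus was subtracted. The genes called between zones numbered 1206 in DESeq2 and 1162 after subtraction. Interaction calls numbered 1 in DESeq2, 96 with no low-count filter and 1 after subtraction, and the 42 genes held 0, 1 and 1 of them in DESeq2, with pericentral landmarks alone and with counts thinned to 1000 UMIs, 0 after subtraction, and 5 with the acute-phase cluster left out. In the periportal zone, feeding calls numbered 111 (DESeq2), 219 (no filter, 3 of the 42), 144 (replicate block), and 0 when thinned to 1000 UMIs or after subtraction. In the pericentral zone they numbered 0 (relative log expression scaling), 81 (DESeq2, 1 of the 42), 189 (no filter, 6 of the 42), 319 (replicate block, 9 of the 42), 2 (outer bins of 5) and 0 (subtraction). Values near 0 changed sign. By feeding, these were Nags at 0.0211 (no filter), 0.0068 (replicate block), 0.0463 (stored zeros counted as 1) and 0.0624 (acute-phase cluster left out), Fah at -0.0015 (relative log expression), -0.0017 (DESeq2) and -0.0047 (subtraction), Prodh at 0.0004 (no scaling), 0.0093 (no filter) and 0.0049 (replicate block), Bckdhb at -0.0086 (relative log expression), -0.0085 (DESeq2) and -0.0337 (scored nuclei alone), and Hibadh at 0.1293 (subtraction). Between zones, these were Nags at -0.0040 (DESeq2), -0.0123 (pericentral landmarks alone) and -0.0769 (subtraction), Glud1 at -0.0368 (outer bins of 5), -0.0310 (pericentral landmarks alone) and -0.0340 (subtraction), Fah at -0.0304 (subtraction), Gcsh at -0.1263 (pericentral landmarks alone) and -0.0834 (thinned to 1000 UMIs), and Ivd at -0.0075 (outer bins of 5) and -0.0266 (subtraction). Leaving out 1 library at a time gave 3 to 275 genes by feeding (0 to 6 of the 42), 17 to 196 for the interaction (0 to 12), 3 to 265 in the periportal zone (0 to 5) and 9 to 209 in the pericentral zone (0 to 9). Signs also changed there by feeding for Nags (-0.32 to 0.37), Gpt (-0.33 to 1.16), Fah (-0.32 to 0.46), Hal (-0.12 to 1.23), Uroc1 (-0.0013 to 0.97), Amt (-0.17 to 1.34), Gcsh (-0.28 to 0.20), Haao (-0.24 to 0.70), Aass (-0.23 to 1.61), Prodh (-0.41 to 0.42), Aldh4a1 (-0.57 to 0.12), Bckdha (-0.28 to 0.81), Bckdhb (-0.16 to 0.22) and Hibadh (-0.48 to 0.33), and between zones for Nags (-0.14 to 0.0894), Glud1 (-0.0259 to 0.0172), Got2 (-0.0574 to 0.0329), Amt (-0.0198 to 0.17), Gcsh (-0.13 to 0.14) and Ivd (-0.0476 to 0.0849). The cause of these changes was not tested. The labels do not say that replicate numbers pair the libraries. Deviations of same-numbered libraries from their group means correlated at 0.424 across 13984 genes, which are not independent replicates. Hepatocyte UMIs ranged from 6772419 (fed 2) to 20962104 (fasted 1) with 2 libraries per group, and what size of difference this depth could miss was not tested.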
